A study of Mus musculus with 6 samples.

Results

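Glutathione S-transferases join glutathione to reactive electrophiles, a step that makes drugs, lipid peroxidation products and other toxic compounds water-soluble and ready for export from the cell. The family holds soluble enzymes, grouped into classes such as alpha, mu, pi, omega and theta, and membrane-bound enzymes of a separate origin, some of which also act in the synthesis of leukotrienes. Many of the genes are known targets of NRF2, the transcription factor encoded by Nfe2l2, which in pancreatic tumours is part of the cell's defence against oxidants. The 10 genes described here were taken from a list of family members matched by gene symbol, 7 for soluble enzymes (Gsta4, Gstm1, Gstm5, Gstp1, Gsto1, Gstt1 and Gstt3) and 3 for membrane-bound enzymes (Mgst1, Mgst2 and Mgst3). All 10 reached at least 10 counts in a library, and all 10 were among the 14537 genes tested, of 53379 annotated.

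The data are 6 RNA-sequencing libraries, 1 from each of 6 organoid cultures grown in matrigel from pancreatic tumours of C57/Bl6 mice. All carry Pdx1-Cre, so that Cre made under the Pdx1 promoter switches on mutant Trp53 in the pancreatic epithelium. The 3 heterozygous cultures have the genotype Trp53LSLR172H/+, and the 3 cultures with loss of heterozygosity (LOH) have Trp53LSLR172H/-, in which the remaining wild-type Trp53 allele is gone. Each group has 1 culture of line 6, line 23 and line 34, so the lines pair the groups. No label says how the LOH cultures were obtained from each line, and the descriptions of all 3 LOH libraries end in "Nut", whose meaning is not stated and which cannot be told apart from genotype. Ages are not given in the labels. The comparison asks how the transferase genes differ between organoids with and without the wild-type allele.

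Library totals ran from 13680458 to 27917277 expected counts, and 3 counts corresponded to 0.1 to 0.223 CPM (counts scaled to the size of the library). Genes annotated as protein-coding took 67.9% to 73.3% of the heterozygous counts and 61.4% to 67.2% of the LOH counts, and the part of this gap in the results below was not tested. All 10 ductal epithelial markers examined were above 1 CPM in some library, with summed levels of 5580 to 6400 CPM in the heterozygous and 5865 to 11596 CPM in those with LOH. The 10 fibroblast markers summed to at most 0.931 CPM in any library, and Col3a1 and Thy1 were at 0 in all 6. Endothelial, acinar and islet lists summed to at most 2.91, 2.68 and 0.175 CPM. The leukocyte list summed to 46.2 to 49.3 CPM in the heterozygous and 23.9 to 48.2 CPM in the LOH libraries, with Adgre1 and Tyrobp at 0 in all and only Cd68 and Cd14 above 1 CPM. Hepatocyte markers, relevant because liver is rich in these enzymes, summed to 39.8 to 55.9 and 5.96 to 52.6 CPM, with Serpina1a and Cyp2e1 at 0 in all. Total Trp53, which these counts do not split into wild-type and mutant transcripts, had 77.3, 76.3 and 86.5 CPM in heterozygous lines 6, 23 and 34 and 73.5, 52.5 and 47.4 CPM in those with LOH. The groups did not overlap, but the log2 fold change of -0.47 did not pass the test (SE 0.22, edgeR adjusted p 0.227). Mdm2, a known target of wild-type p53, fell (log2 fold change -1.26, SE 0.22, edgeR adjusted p 0.0284; adjusted p 0.0905 with the line as a block).

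Of the 10 transferase genes, 1 rose and 1 fell with LOH in the edgeR test, and both are membrane-bound enzymes. Mgst2 was higher in LOH and Mgst1 was lower. That is 2 of 10 beside 5.21% of all genes tested, with 1 of 10 higher beside 3.55% and 1 of 10 lower beside 1.66%. The remaining 8, among them all 7 soluble enzymes, did not pass. With the line as a block, Mgst2 was the 1 gene of the 10 that passed, beside 1.47% of all genes. These are bulk libraries, in which fewer cells of a kind and less RNA per cell cannot be told apart. Because the labels do not say how independent the cultures of a group are, the p-values measure only the spread between these samples.

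The stretches next to the start sites of the genes whose groups did not overlap (Mgst1, Mgst2 and Gstm5) are shown as a description. They come from RefSeq on GRCm38.p6, all on the plus strand. Capitals mark the core of the antioxidant response element to which NRF2 binds, searched on both strands as TGACNNNGC in the 250 bases before and 50 bases after each annotated start. The Mgst1 stretch is chr6:138140461-138140490, the Gstm5 stretch chr3:107895802-107895831 and the Mgst2 stretch chr3:51660929-51661177.
Mgst1: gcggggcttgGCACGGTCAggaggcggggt
Gstm5: caccgcccacTGACCACGCggagggcgggt
Mgst2: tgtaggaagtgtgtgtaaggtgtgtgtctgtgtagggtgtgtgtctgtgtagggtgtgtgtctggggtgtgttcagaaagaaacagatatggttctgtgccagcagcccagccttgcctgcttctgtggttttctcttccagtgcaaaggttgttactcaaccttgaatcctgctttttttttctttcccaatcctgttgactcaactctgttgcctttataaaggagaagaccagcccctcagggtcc
In Mgst1 the match begins at position -56 from the RefSeq start and reads TGACCGTGC on the minus strand, and it lies in the first exon of the longer transcript Mgst1-201. In Gstm5 it begins at position -42 and reads TGACCACGC on the plus strand, inside an exon of 4933431E20Rik, a gene on the opposite strand. The 300-base window of Mgst2 held no match, nor did that of the other RefSeq start of Mgst1 (138141587). Of the genes with a match, Mgst1 was lower and Gstm5 higher in every LOH library than in every heterozygous one. A link between a match and these changes was not tested. RefSeq promoters were present for 9 of the 10 genes (all but Gsta4), and 2 of these 9 had a match, beside 14% of the 27025 genes with a promoter and 12.4% of the 32851 promoters. A match describes letters in the window and is not evidence that a factor binds there. No other form of the element was searched, so a window without a match is not evidence that the element is absent.

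**Figure D1:**
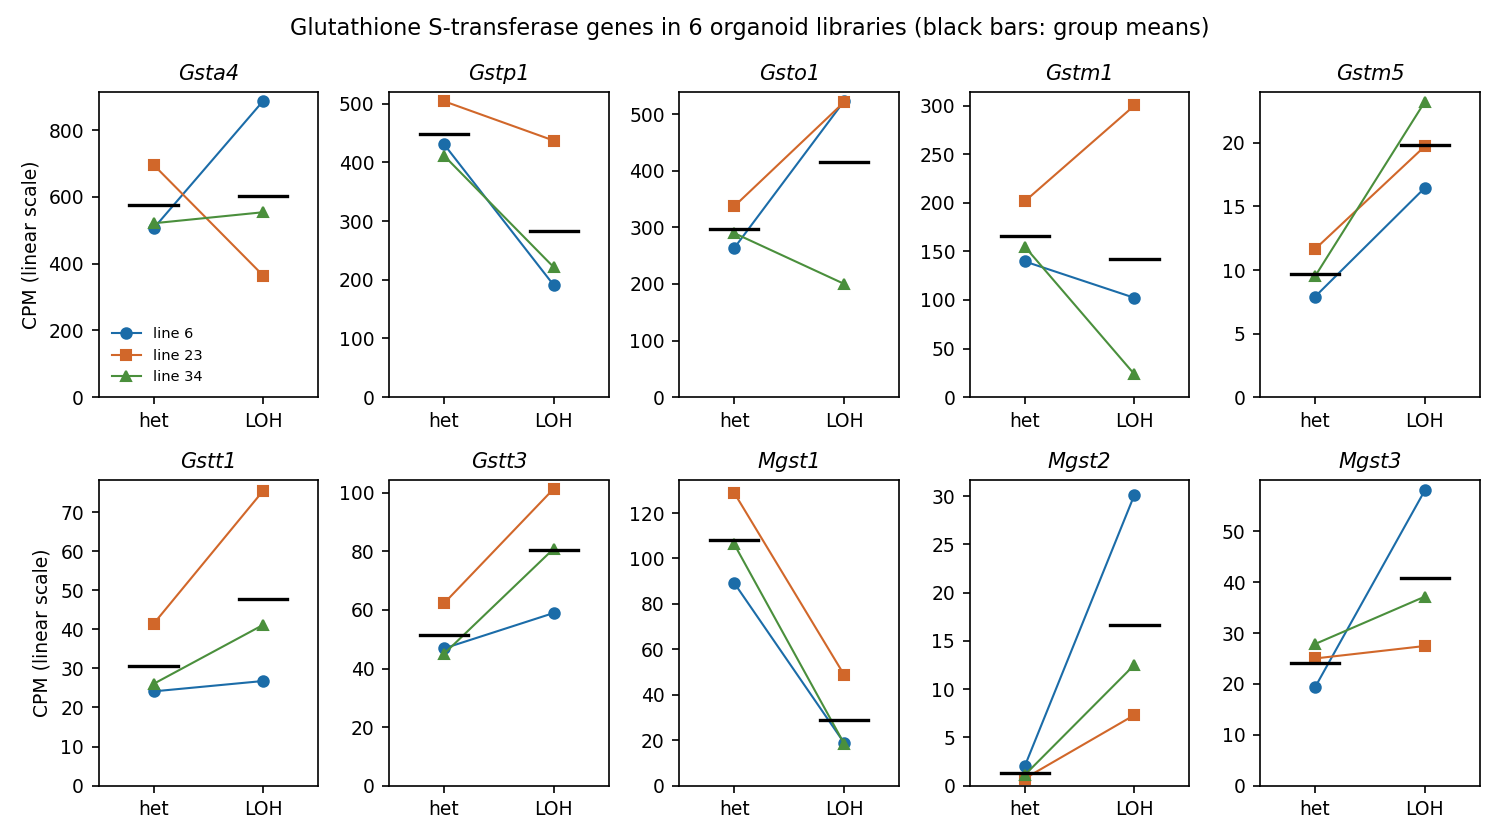
Expression of the 10 transferase genes in CPM (linear axes from 0, each with its own scale) in the heterozygous (het) and LOH libraries. Symbols and lines join the cultures of 1 organoid line, and black bars are group means. Mgst2 and Gstm5 are higher and Mgst1 is lower in every LOH library than in every heterozygous one, while Gsta4, Gstm1 and Gsto1 move in different directions in different lines.

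Gsta4 encodes an alpha-class enzyme known for its activity on 4-hydroxynonenal, a product of lipid peroxidation (ENSMUSG00000032348.6, GRCm38 chromosome 9, 78182774 to 78209349, plus strand). It had 506, 696 and 521 CPM in heterozygous lines 6, 23 and 34, and 888, 364 and 554 CPM in the LOH libraries of the same lines. The highest and the lowest of the 6 values were thus both LOH libraries, of lines 6 and 23. Group means were 574 ± 106 and 602 ± 265 CPM (SD, n = 3 each), and the log2 fold change of 0.07 did not pass (SE 0.34, edgeR adjusted p 0.919). The log2 ratio of LOH to heterozygous in lines 6, 23 and 34 was 0.81, -0.94 and 0.09.

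Gstp1 encodes the pi-class enzyme, which is often abundant in epithelial tumours (ENSMUSG00000060803.5, chromosome 19, 4035407 to 4037985, minus strand). Its levels were 431, 504 and 412 CPM in the heterozygous and 191, 437 and 222 CPM in the LOH libraries. LOH lines 6 and 34 lay below every heterozygous library, whereas LOH line 23 lay within the heterozygous range. The mean was 449 ± 48.9 CPM in heterozygous and 283 ± 134 CPM in LOH (SD, n = 3 each). edgeR gave a log2 fold change of -0.66 with an SE of 0.33 (adjusted p 0.256), and without the LOH library of line 23 it was -1.12 with an adjusted p of 0.046. TPM values, the abundance of transcripts scaled for their length and for depth, gave -1.14 on the log2(TPM + 1) scale and passed the limma test (adjusted p 0.0471), on a scale where the median of all genes tested was itself -0.35.

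Gsto1 encodes an omega-class enzyme that works mainly as a thiol transferase and reductase (ENSMUSG00000025068.7, chromosome 19, 47854970 to 47864790, plus strand). It had 264, 337 and 290 CPM in heterozygous lines 6, 23 and 34 and 523, 521 and 200 CPM in LOH. LOH lines 6 and 23 exceeded all heterozygous libraries and LOH line 34 was the lowest of the 6. The log2 fold change of 0.48 did not pass (SE 0.37, edgeR adjusted p 0.44), and on the log2(TPM + 1) scale it was -0.03. It overlaps Cfap43 on the opposite strand.

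The mu-class genes lie together on chromosome 3. Gstm1 (ENSMUSG00000058135.12, 108012255 to 108017973, minus strand) had 140, 202 and 155 CPM in heterozygous lines 6, 23 and 34 and 102, 300.2 and 23.5 CPM in LOH. The LOH libraries thus held both the highest and the lowest value, and the level in LOH line 34 was a small part of that in LOH line 23. The log2 ratio within lines was -0.45, 0.57 and -2.72, and the log2 fold change over lines was -0.22 (SE 0.76, edgeR adjusted p 0.881). Without the LOH library of line 34 it was 0.28 (adjusted p 0.74).

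Gstm5 (ENSMUSG00000004032.10, 107895821 to 107898686, plus strand), a lowly expressed mu-class gene, behaved otherwise. It had 7.91, 11.6 and 9.51 CPM in the heterozygous and 16.5, 19.7 and 23.2 CPM in the LOH libraries. All LOH libraries were above all heterozygous ones, the case for 3 of the 10 genes (Gstm5, Mgst1 and Mgst2) beside 32.8% of all genes tested in either direction. The log2 fold change of 1.04 narrowly missed the threshold (SE 0.24, edgeR adjusted p 0.0584), and an exact permutation test on the 6 values gave its smallest possible p of 0.1 (two-sided). DESeq2 passed it (adjusted p 0.00784), as did edgeR without the LOH library of line 6 (log2 fold change 1.12, adjusted p 0.0291). Gstm5 shares its locus with 4933431E20Rik on the other strand, and the strand setting of the counting is not given in the sources used here.

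The theta-class genes Gstt1 and Gstt3 are neighbours on chromosome 10 (75783813 to 75798584 and 75774115 to 75781414, both minus strand; ENSMUSG00000001663.10 and ENSMUSG00000001665.11). Gstt1 had 24.1, 41.4 and 26.0 CPM in the heterozygous and 26.8, 75.5 and 41.2 CPM in the LOH libraries. Gstt3 had 46.9, 62.2 and 45.0 CPM in the heterozygous and 59.0, 101 and 80.9 CPM in the LOH libraries. For both genes the LOH library was higher than its heterozygous partner in every line, and line 23 was the highest of each group. The groups nevertheless overlapped, and the log2 fold changes of 0.65 for Gstt1 (SE 0.41) and 0.65 for Gstt3 (SE 0.26) had edgeR adjusted p-values of 0.358 and 0.171. Without the LOH library of line 23 the value of Gstt1 was 0.16 (adjusted p 0.814). Gstt3 overlaps Gm20441 on the same strand.

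Mgst1 encodes microsomal glutathione transferase 1, which sits in the endoplasmic reticulum and outer mitochondrial membrane and protects membranes from lipid peroxidation (ENSMUSG00000008540.11, chromosome 6, 138140316 to 138156755, plus strand). It had 89.1, 129 and 106 CPM in heterozygous lines 6, 23 and 34 and 18.9, 48.8 and 18.5 CPM in the LOH libraries. Every LOH library was below every heterozygous one, and line 23 was the highest in both groups. Means were 108 ± 19.9 in heterozygous and 28.7 ± 17.4 CPM in LOH (SD, n = 3 each), and Mgst1 fell to a 3.75-fold lower fitted level (log2 fold change -1.91, SE 0.42, edgeR adjusted p 0.0494). The log2 ratio within lines was -2.24, -1.40 and -2.51. With the line as a block the log2 fold change was -2.05 and the adjusted p 0.0534, above the threshold, so the call depends on the choice of fit. It was also lost without the LOH library of line 34 (-1.68, adjusted p 0.0836) or of line 6 (-1.72, adjusted p 0.0507), and without that of line 23 the value was -2.53 (adjusted p 0.0173).

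Mgst2 encodes microsomal glutathione transferase 2, which can also make leukotriene C4 (ENSMUSG00000074604.9, chromosome 3, 51660360 to 51682677, plus strand). It had 60, 10 and 33 counts in heterozygous lines 6, 23 and 34, against 518, 194 and 269 counts in the LOH libraries. In CPM these were 2.0, 0.742 and 1.1 against 30.2, 7.32 and 12.5. Every LOH library was above every heterozygous one, and line 6 was the highest of each group while line 23 was the lowest. Means were 1.28 ± 0.649 in heterozygous and 16.7 ± 12.0 CPM in LOH (SD, n = 3 each), and Mgst2 rose to a 12.7-fold higher fitted level (log2 fold change 3.66, SE 0.64, edgeR adjusted p 0.0301). The ratio was 3.86, 3.16 and 3.41 on the log2 scale in lines 6, 23 and 34, and the block gave 3.59 (SE 0.32, adjusted p 0.0318). The size leaned on the LOH library of line 6, without which the log2 fold change was 2.87 (adjusted p 0.023).

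In the fit without a block, leaving out any 1 heterozygous library ended the calls of both Mgst1 and Mgst2. Without heterozygous line 6, 23 or 34 this fit gave Mgst2 log2 fold changes of 4.12, 3.41 and 3.55 with edgeR adjusted p-values of 0.117, 0.137 and 0.156. For Mgst1 the corresponding log2 fold changes were -2.06, -1.77 and -1.93, with adjusted p-values of 0.147, 0.169 and 0.186. Each of these fits called 0 genes in the whole table, while 2272 to 2966 genes had an unadjusted p under 0.05. With the block, a library without its partner does not enter the group comparison, so leaving out 1 library drops its whole line. Without the heterozygous library of line 6, both passed in the block fit (Mgst1 -1.99, edgeR adjusted p 0.0227, and Mgst2 3.38, adjusted p 0.00931). That fit called 2371 genes in the whole table. Without the LOH library of line 6 the block gave nearly the same values (Mgst1 -1.98, Mgst2 3.38). Without the heterozygous library of line 23 or 34 neither passed with the block. Without both libraries of line 6 and with no block, Mgst2 passed (3.37, adjusted p 0.039), Mgst1 did not (-1.83, adjusted p 0.0801), and 1422 genes were called.

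Mgst3 encodes microsomal glutathione transferase 3, another enzyme with glutathione peroxidase activity (ENSMUSG00000026688.5, chromosome 1, 167371966 to 167393841, minus strand). It had 19.4, 25 and 27.8 CPM in the heterozygous and 58.0, 27.4 and 37.2 CPM in the LOH libraries. Each LOH library was above its partner, but LOH line 23 was below heterozygous line 34. The change of 0.76 on the log2 scale did not pass (SE 0.31, edgeR adjusted p 0.179), and it was 0.39 without the LOH library of line 6.

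**Figure D2:**
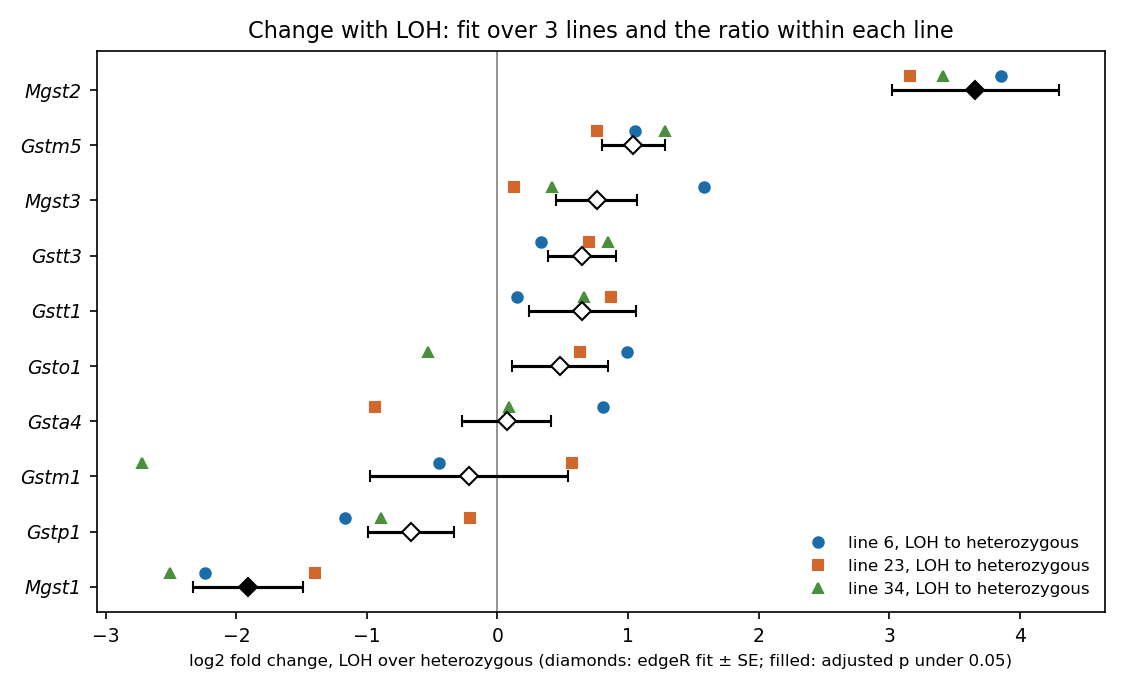
Log2 fold change of LOH over heterozygous for the 10 transferase genes. Diamonds with bars are the edgeR fit over the 6 libraries ± SE (filled for an adjusted p under 0.05), and coloured symbols are the log2 ratios within lines 6, 23 and 34. Mgst2 at 3.66 and Mgst1 at -1.91 stand at the ends, and the line ratios of Gstm1 run from -2.72 to 0.57.

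Across the 10 genes, 5 were higher and 2 lower in the LOH library of every line, 7 in all, beside 44.5% of all genes tested that kept 1 direction in every line. The 5 were Gstm5, Gstt1, Gstt3, Mgst2 and Mgst3, and the 2 were Gstp1 and Mgst1. The other 3, Gsta4, Gstm1 and Gsto1, had ratios of both signs. The median log2 fold change of the 10 genes was 0.57, beside 0.06 for all genes tested, and the median within lines was 0.57, 0.60 and 0.25 in lines 6, 23 and 34. An unadjusted p under 0.05 was reached by 5 of the 10 genes in edgeR, beside 25.3% of all genes tested. DESeq2 called 3 of the 10 at an adjusted p under 0.05, beside 14.7%.

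Levels of different genes were compared in TPM. The heterozygous order ran from Gstp1 at 841 ± 90.2 TPM (SD, n = 3) through Gsta4, Gsto1, Mgst1, Gstm1, Gstt1, Gstt3, Mgst3 and Gstm5 to Mgst2 at 2.87 ± 1.36 TPM. Of these neighbours, Gstp1 and Gsta4, Mgst1 and Gstm1, Gstt1 and Gstt3, and Gstt3 and Mgst3 overlapped in their ranges, and the others were apart. In LOH the order was Gsta4, Gstp1, Gsto1, Gstm1, Gstt1, Gstt3, Mgst1, Mgst3, Mgst2 and Gstm5, and all neighbours overlapped. Mgst1 was thus the fourth most abundant in heterozygous organoids (197 ± 26.7 TPM) and the seventh in LOH (39.3 ± 23.2 TPM, SD, n = 3 each).

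Gsta4, Gstp1 and Gsto1 together supplied 79.4% to 81.5% of the summed TPM of the 10 genes in the heterozygous and 75.1% to 85.3% in the LOH libraries. The 10 genes summed to 2483, 2648 and 2169 TPM in heterozygous lines 6, 23 and 34 and to 2116, 1930 and 1167 TPM in LOH. These sums depend on the scaling between libraries, and on the log2(TPM + 1) scale the median log2 fold change of all genes tested was itself -0.35. The shares below are free of the scaling between libraries. The membrane-bound genes made up 8.67%, 9.69% and 9.8% of that sum in the heterozygous and 6.69%, 5.28% and 6.46% in the LOH libraries. Within the membrane-bound genes, Mgst1 held 85.8%, 88.6% and 83.7% in the heterozygous and 19.7%, 64.7% and 31.8% in the LOH libraries. Mgst2 held 2.02%, 0.651% and 1.22%, against 39.1%, 10.7% and 27.0% in LOH. Mgst3 held 10.8% to 15.1% and 24.6% to 41.3%. The groups did not overlap for any of these membrane shares. The shares of Mgst1, Mgst2 and Mgst3 are parts of the same sum, so a fall of one raises the others and they are not separate results. The TPM of Mgst3 itself did overlap, at 26.2 to 32.0 in the heterozygous and 25.1 to 58.2 in the LOH libraries. The TPM of Mgst2 divided by that of Mgst1 was 0.0235, 0.00735 and 0.0146 in the heterozygous and 1.98, 0.165 and 0.85 in the LOH libraries, so that Mgst2 exceeded Mgst1 in LOH line 6 alone.

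At the transcript level, 8 of the 10 genes had 1 transcript that took over 50% of the gene's abundance in every library. Mgst1 and Mgst2 were the exceptions. The abundance of Mgst1 was estimated for several protein-coding transcripts, with Mgst1-204 at 27.7% to 48.4%, Mgst1-201 at 18.9% to 33.6% and Mgst1-207 at 14.8% to 27.4%. Each of these 3 was lower in every LOH library than in every heterozygous one. Mgst1-201 had 38.8, 42.9 and 50.8 TPM against 9.2, 22.2 and 6.0 TPM, Mgst1-204 had 73.5, 68.3 and 56.0 against 13.5, 25.7 and 6.63 TPM, and Mgst1-207 had 37.7, 60.4 and 48.7 against 4.83, 9.78 and 6.02 TPM.

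Mgst2-201, which is protein-coding, had 3.89, 0 and 1.35 TPM in the heterozygous and 46.8, 7.0 and 15.6 TPM in the LOH libraries. It took 84.6%, 64.5% and 76.9% of Mgst2 in LOH lines 6, 23 and 34. In heterozygous line 23, which had 10 Mgst2 counts in all, the value of 0 belongs to a split of very few reads. Gm37261, which lies inside Mgst2 on the same strand (chromosome 3, 51672801 to 51673901), had 7, 4 and 7 counts in the heterozygous and 35, 24 and 18 counts in the LOH libraries (log2 fold change 2.30, SE 0.53, edgeR adjusted p 0.0549). Its share in the Mgst2 count was not tested, and its counts were small beside those of Mgst2 in every LOH library.

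**Figure D3:**
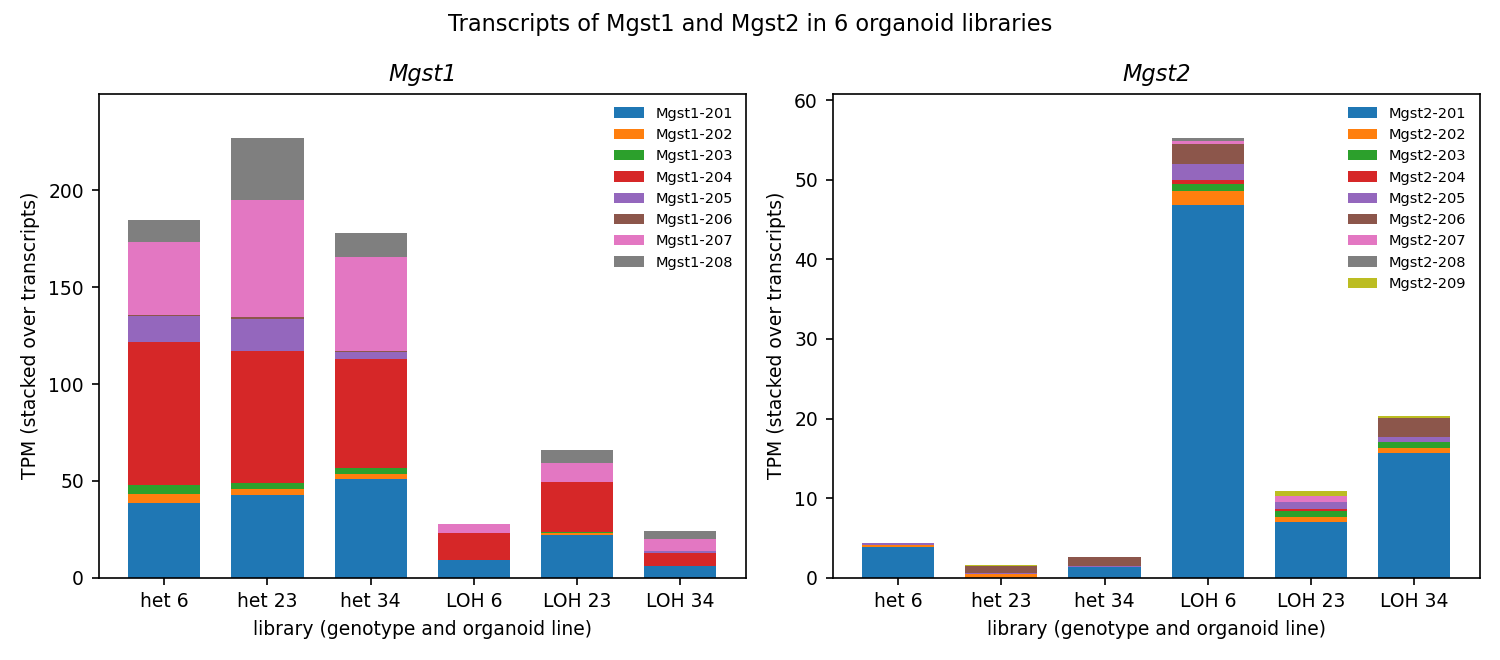
TPM of the annotated transcripts of Mgst1 (left) and Mgst2 (right), stacked for each library, with linear axes of different scale. Bars of Mgst1 add up to 178 to 227 TPM in the heterozygous and 23.9 to 65.9 TPM in the LOH libraries, and those of Mgst2 to 1.67 to 4.34 and 10.8 to 55.3 TPM.

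Called genes around Mgst1 and Mgst2 were counted beside the 5.21% of all genes tested that passed. Of the 20 nearest tested genes of Mgst2, 10 on each side, 0 passed the edgeR test, and their median log2 fold change was 0.38. The median was 0.19 for the 511 other tested genes of chromosome 3 with at least 5 CPM on average. That limit was not set on the nearest genes, so the sets compared are unlike. Among the 20 of Mgst1 the median was also 0.38, beside 0.05 for the genes of chromosome 6 within that limit. Of these 20, 1 gene was called, Gucy2c, which was higher. Gclc, a gene of glutathione synthesis that is described below, was the 1 called gene among the 20 nearest to Gsta4.

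The genes whose profile over the 6 libraries was nearest to that of Mgst2, by the root mean square difference of centred log2 CPM among 10074 genes of at least 5 CPM on average, were Prex1 (0.47), Cdhr2 (0.50) and Slc40a1 (0.52). Prex1 encodes an activator of Rac, Cdhr2 a cadherin of the brush border and Slc40a1 the iron exporter ferroportin. Slc40a1 had 19.5, 17.8 and 18.3 CPM in the heterozygous and 253, 114 and 109 CPM in the LOH libraries. These genes were selected for this likeness, so their levels are a description.

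The rest of the glutathione pathway was described with 7 lists holding 79 genes, of which 65 were tested. Of these, 1 rose and 7 fell, 8 in all, beside 5.21% of all genes tested that passed (3.55% higher and 1.66% lower). The counts of each list below stand beside the same shares. The median log2 fold change of the 65 was 0.03, beside 0.06 for all genes tested. With the line as a block 3 passed (Ptges, Abcg2 and Nfe2l2), beside 1.47% of all genes, and DESeq2 called 15 of the 65, beside 14.7%. The balance of directions among the called genes was thus opposite to that of all genes tested, where 516 were higher and 241 lower. This difference in balance was not tested.

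Among 22 other glutathione transferase genes and their relatives, 16 were tested, 1 rose, 0 fell, and the median log2 fold change was 0.16. Ptges, which encodes microsomal prostaglandin E synthase, a membrane enzyme of the same superfamily as Mgst1 and Mgst2, had 0.901, 2.08 and 0.834 CPM in the heterozygous and 11.4, 56.1 and 22.9 CPM in the LOH libraries. All LOH libraries were higher (log2 fold change 4.62, SE 0.71, edgeR adjusted p 0.0229; 0.0318 with the block). Without the LOH library of line 23 the value was 3.79 (adjusted p 0.0336). It overlaps Gm13400 on the same strand.

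For family genes that sit in 1 cluster, the LOH library with the highest or lowest value is described. With 3 LOH libraries genes readily share it, and how often other neighbouring genes do so was not tested. Gstm6 of the mu cluster, with 18, 34 and 4 counts in LOH lines 6, 23 and 34, was too low to be tested. The following genes were singled out after their values were seen. Of the 7 genes of the mu cluster (chromosome 3, 107895821 to 108044894), 6 had their lowest LOH value in line 34, and Gstm5 had its highest there. Gstm2 had 9.43, 53.6 and 5.91 CPM and Gstm3 10.8, 14.5 and 0.885 CPM in LOH lines 6, 23 and 34. Gstm3 was at 0.501 to 0.834 CPM in the heterozygous libraries, and the change of 3.66 on the log2 scale missed the threshold (SE 0.94, edgeR adjusted p 0.0704). Without the LOH library of line 34 Gstm3 passed (4.19, edgeR adjusted p 0.012).

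All 5 genes of the alpha cluster (chromosome 9, 78182774 to 78355788) had their highest LOH value in line 6, and 4 had their lowest in line 23. Gsta1 had 238, 46.2 and 97.0 CPM in LOH lines 6, 23 and 34, and 122 to 174 CPM in the heterozygous libraries. Gsta1 and Gm3776 are close copies, so the split of reads between them is uncertain. All 3 genes of the pi cluster on chromosome 19 had their highest LOH value in line 23. Gstp2 had 22.3 CPM there, against 0.467 to 2.04 CPM in the other 5 libraries. Reads of Gstp1 and Gstp2 were in part divided between genes, so their likeness is uncertain. Gstp3 had only 0, 9 and 0 counts in LOH lines 6, 23 and 34 and was not tested. The summed CPM of the mu cluster ran from 180 to 273 in the heterozygous libraries and was 150, 400.4 and 56.4 in LOH lines 6, 23 and 34. For the alpha cluster the corresponding values were 735 to 1008, and 1301, 441 and 740. No gene of these clusters passed the edgeR test between the groups over all 6 libraries with the filter on low counts. Unfiltered, Gstm3 passed it (3.63, adjusted p 0.0323), and DESeq2 called Gstm3 (adjusted p 0.000234) as well as Gstp2 (adjusted p 0.0183) and Gstm5. The log2 fold change of Gstp2 was 3.20 in edgeR (adjusted p 0.169) and 0.55 without the LOH library of line 23.

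Genes that make glutathione included 1 that fell. Gclc encodes the catalytic subunit of glutamate-cysteine ligase, which catalyses the rate-limiting step. It had 312, 380 and 316 CPM in the heterozygous and 81.5, 141 and 156 CPM in the LOH libraries, with no overlap (log2 fold change -1.41, SE 0.27, edgeR adjusted p 0.036; 0.0735 with the block). All 5 genes of the list were tested, and the median was -0.50. Gclm, the modifier subunit, had 159 ± 22.3 and 77.2 ± 37.1 CPM (SD, n = 3 each) and did not pass (log2 fold change -1.04, edgeR adjusted p 0.132).

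Of the 8 genes that supply NADPH or recycle glutathione and thiols, 3 fell and 0 rose, with a list median of -0.59. Txnrd1 encodes thioredoxin reductase 1. It fell from 356 ± 16.1 to 153 ± 17.6 CPM (log2 fold change -1.22, edgeR adjusted p 0.019; 0.068 with the block). G6pdx, the entry enzyme of the pentose phosphate pathway, fell from 213 ± 8.70 to 108 ± 15 CPM (-0.98, edgeR adjusted p 0.0313; 0.107 with the block). Pgd, a later NADPH-producing enzyme of that pathway, fell from 263 ± 47.3 to 129 ± 15.2 CPM (-1.03, edgeR adjusted p 0.0378; 0.115 with the block; SD, n = 3 in each case). Gsr, glutathione reductase, had 271, 314 and 290 CPM in the heterozygous and 349.6, 346 and 347 CPM in the LOH libraries (0.25, edgeR adjusted p 0.348).

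Of the 9 glutathione peroxidase genes, 6 were tested and 0 passed in edgeR, with 2 at an unadjusted p under 0.05 and 0 called by DESeq2. Among 19 genes for the export and breakdown of glutathione conjugates, 14 were tested, 1 fell and 0 rose. That 1 was Abcg2, an efflux pump for drugs and conjugates, with 14.1, 13.8 and 12.4 CPM in the heterozygous and 1.16, 0.680 and 0.419 CPM in the LOH libraries (log2 fold change -4.16, SE 0.41, edgeR adjusted p 0.0108; 0.0318 with the block). The list median was 0.44, and 9 of the 14 were above 0.

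Of 11 regulators of the pathway, 1 fell and 0 rose, and their median was 0.21. Nfe2l2 had 345, 356 and 342.5 CPM in the heterozygous libraries and 106, 83.4 and 95.5 CPM in LOH, and was lower in every line (-1.87, edgeR adjusted p 0.00985; 0.0352 with the block). Keap1, which targets NRF2 for degradation, had a log2 fold change of -0.21 (edgeR adjusted p 0.498). Of 5 other known NRF2 targets, 1 fell, Srxn1, the enzyme that repairs overoxidised peroxiredoxins, from 97.9 ± 13.2 to 35.0 ± 5.90 CPM (SD, n = 3 each; -1.49, edgeR adjusted p 0.0197; 0.0699 with the block). The list leaves out genes already in the lists above, among them Gclc, Txnrd1, G6pdx and Pgd, so it does not count all NRF2 targets. The others of that list did not pass. Their log2 fold changes were 0.69 for Nqo1, -0.20 for Hmox1, -1.84 for Ephx1 and -0.73 for Cbr3 (edgeR adjusted p 0.673, 0.76, 0.085 and 0.306). Of the 10 transferases, 7 had a log2 fold change above 0, 1 of them past the threshold. Gsta4 and Gsto1, among these 7, had ratios of both signs between lines. Of the 14537 genes tested, 7850 were above 0. A link between the level of Nfe2l2 and that of the transferases was not tested.

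**Figure D4:**
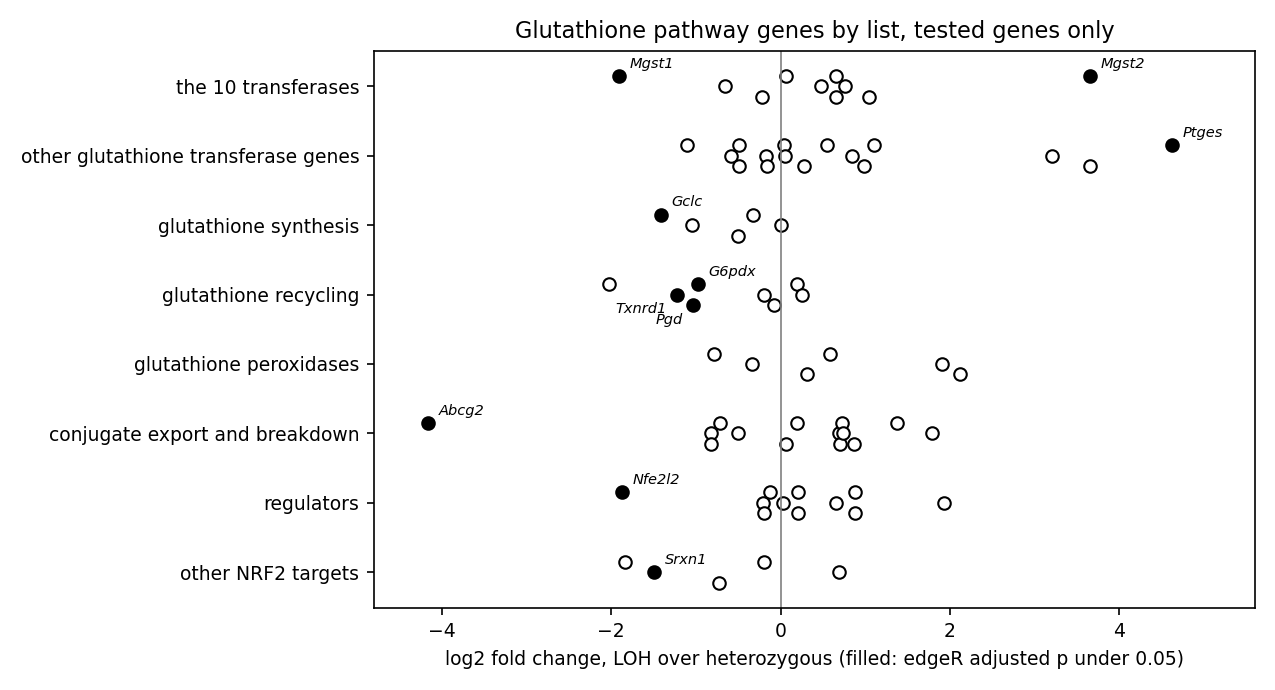
Log2 fold change of LOH over heterozygous for each tested gene of the 10 transferases and of 7 lists of the glutathione pathway. Filled circles passed the edgeR test (adjusted p under 0.05) and are named. The called genes outside the transferases lie below 0, from -4.16 for Abcg2 to -0.98 for G6pdx, except Ptges at 4.62.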

How the data were processed

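Libraries were prepared from total RNA with a stranded kit, per the labels. FastQC 0.11.5, STAR 2.5.2b, RSEM 1.3.0, DESeq2 1.44.0 and the build GRCm38.p5 are named in the submitters' processing notes. Expected counts were deposited by the authors per gene and need not be whole, because reads that fit several genes are divided. TPM values deposited by the authors are scaled for length and depth, and each transcript's share of its gene is a percent deposited in the transcript tables. The deposited normalized table holds a signal and served to match gene symbols. The deposited tables carry GENCODE mouse release 16 in their names. Coordinates came from release 21, in which 53274 of 53379 gene identifiers were found.

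Groups and lines were read from the sample titles. Part of the genotype that all 6 cultures share, and 1 marker gene, are not reported here. Counts were rounded, filtered with filterByExpr, scaled by TMM and tested by quasi-likelihood in edgeR 4.0.16 (R 4.3.3). P-values are two-sided and adjusted by Benjamini-Hochberg over all 14537 genes, and 0.05 was the threshold. CPM values are TMM-scaled, and line ratios used a prior count of 2. The SE was derived from the log2 fold change and its F statistic. Alternatives were scaling by upper quartile or by RLE, testing unfiltered genes, those with 10 counts or more in each library, or only protein-coding ones, the line as a block, DESeq2 1.42.0 and limma 3.58.1 on log2(TPM + 1) or log2(TPM + 0.1) for genes whose TPM reached 1 in 3 libraries, or on log2(TPM + 1) without that filter, and leaving out each library or line. Truncated counts, and the block with a library left out, were chosen after seeing the data. Tables and figures used Python 3.11.15, numpy 2.4.6, pandas 2.3.3, scipy 1.17.1 and matplotlib 3.10.9.

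The member genes, the 7 pathway lists and the 7 marker lists were chosen with earlier results of these data known. Named were every member, every listed pathway gene past the threshold, Nfe2l2, Trp53, Mdm2 and the 3 genes nearest in profile to the member with the smallest p. Other genes were named after their values were seen.

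Reads of Gstm1, Gstm5, Gstp1 and Gstt3 were in part divided between genes, so these values are less certain, while 6 members had whole counts in every library. Equal numbers in the titles mark the same organoid line, so they pair the samples. Deviations from the group means, correlated over 14537 genes, gave -0.30, 0.01 and 0.29 in lines 6, 23 and 34. Between heterozygous and LOH libraries of different lines the values ran from -0.39 to 0.30, so libraries of the same line were not more alike. The labels state no paired model, so the fit without a block was used. On simulated data of this comparison (14179 genes), edgeR called 10 of 67 genes changed 2-fold, 39 of 67 changed 4-fold and 63 of 66 changed 16-fold, with 6 false calls. The simulated libraries were independent and held no line effect. Their spread followed the mean level of a gene and was equal in both groups, so these rates may not hold for the real libraries. A count of 3 is the limit that a count of 0 allows, for counting error only.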

Additional observations from a re-analysis of the deposited data

Results flagged for a closer look

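For 3 genes the LOH library was higher than its heterozygous partner in some lines and lower in others. The log2 ratio of Gstm1 spanned 3.29 between lines, from -2.72 in line 34 to 0.57 in line 23. That of Gsta4 spanned 1.75, from -0.94 in line 23 to 0.81 in line 6. That of Gsto1 spanned 1.52, from -0.53 in line 34 to 0.99 in line 6. With 1 library per line and genotype, these differences between lines were not tested.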

How the results depend on the processing

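Of the transferase genes, 2 were called in the fit reported, 1 higher and 1 lower. With the replicate block, which pairs the libraries of a line, 1 was called, 1 higher and 0 lower (Mgst1 lost its call), and 3 pathway genes in place of 8. The block changed no other call of a transferase. DESeq2 called 2 higher transferases and 16 pathway genes, with those that edgeR filtered out. limma on log2(TPM + 1) or log2(TPM + 0.1) called 2 lower transferases and 14 pathway genes, with a median change of the 10 genes of 0.07, and these scales moved the median of all genes to -0.35 and -0.42. Without a filter limma called 0 (0 higher, 0 lower; 4 at an unadjusted p under 0.05), with a median of 0.07. Leaving out a library or a line gave 0 to 3 transferases, 0 to 2 of them higher and 0 to 2 lower, 0 to 13 pathway genes, and a median change of 0.22 to 0.69. Leaving out a library under the block, which takes its whole line out of the comparison, gave 0 to 2. Leaving out both libraries of line 23 or 34 called 0 genes in the whole table, with 2253 and 2097 at an unadjusted p under 0.05, whereas without line 6, again with 4 libraries, 1422 were called. Without the LOH library of line 6 alone 2449 were called, above the 757 of all 6 libraries. The cause was not tested.

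Directions reversed only for genes that passed no test. Gsta4 was at -0.01 with the replicate block and at -0.40 in all 3 limma fits, and leaving out libraries or lines put it at -0.43 to 0.49, with values below 0 when LOH line 6, heterozygous line 34 or 6, or line 6 was omitted. Gsto1 was at -0.03 in all 3 limma fits. Gstm1 ran from -1.40 to 0.28 and was above 0 when LOH line 34, or both libraries of line 34, were omitted. Gsta1 ran from -1.07 to 0.41 and was above 0 when either or both libraries of line 23 were omitted. Mgst2 stayed between 2.71 and 4.12 and Mgst1 between -2.53 and -1.68 in the 20 alternatives, with their calls kept in 14 and 10 of them. Depth limits Mgst2, which had 10 to 60 counts in the heterozygous libraries.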
